A study of Mus musculus with 6 samples.

Results

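Chromatin accessibility of mouse embryonic stem cells in mitosis was set against that in early G1, the first phase after division. The comparison rests on 4 lists of ATAC-seq peaks, both titled mito and both titled eG1-1, out of 6 lists in the series. ATAC-seq marks open DNA by letting the transposase Tn5 insert sequencing adapters into it. Where peaks of the 4 lists overlapped on chromosomes 1 to 19 they were merged, which gave 61151 regions, against 64018 when all 6 lists were merged. A region, gene or promoter is called mito-only where both mito lists held a peak there and neither eG1-1 list did, and eG1-1-only in the reverse case. The labels do not spell out mito, LM and eG1-1. The reading mitosis, late mitosis and early G1 follows the series title, which names mitotic exit, although the peak names of the LM lists read Telo.

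By their labels the 6 samples differ in stage and replicate alone. The cells were of the CGR8 line, untreated, and the titles name the serum-free N2B27 medium. The protocols give that medium, with leukemia inhibitory factor and inhibitors of GSK3 and MEK (CHIR99021 and PD184352), for cells called Cdt-MD, and the design text names CGR8 Cdt1-MD cells. The sources used here do not say how many clones of the line were used, how cells of each stage were told apart, or whether replicates came from separate cultures, and the spread between replicates may therefore be technical. The peak names of all replicate 1 lists carry the code NXT1088 and those of all replicate 2 lists NXT1106. These codes are read here as sequencing runs, so that each run holds 1 mito, 1 LM and 1 eG1-1 list. How pure each labelled stage was could not be checked from peak lists.

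During mitosis chromosomes condense, most transcription stops and many transcription factors leave the DNA. Some promoters and enhancers nevertheless stay accessible through division, which is called mitotic bookmarking and has been studied intensively in pluripotent cells. Promoters fall into broad classes by their content of CpG, a C followed by a G. Most CpG in mammalian genomes is methylated and has been lost by mutation, while CpG islands, the CpG-rich stretches at the starts of housekeeping and many developmental genes, are usually unmethylated and open. Promoters poor in CpG belong more often to tissue-restricted genes.

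Promoter sequences of 6 genes show the contrast on which most of the results turn. The 250 bases before the annotated start are given 5′ to 3′ on the strand of the gene, from RefSeq on GRCm38.p6, with every CpG in capitals. Rap2a (chr14:120478211-120478460, plus strand), Znrf2 (chr6:54816666-54816915, plus strand) and Gmfg (chr7:28437219-28437468, plus strand) had a promoter peak in both mito lists and in no eG1-1 list. Hoga1 (chr19:42045620-42045869, plus strand), Gstm2 (chr3:107986421-107986670, minus strand) and 0610010F05Rik (chr11:23633632-23633881, minus strand) had one in both eG1-1 lists and in no mito list. Rap2a and Znrf2 are shown as promoters with a CpG content above the upper quartile of the mito side, Gstm2 as one below the lower quartile of the early G1 side and Hoga1 as one between its quartiles. Gmfg and 0610010F05Rik are exceptions on their sides.
Rap2a: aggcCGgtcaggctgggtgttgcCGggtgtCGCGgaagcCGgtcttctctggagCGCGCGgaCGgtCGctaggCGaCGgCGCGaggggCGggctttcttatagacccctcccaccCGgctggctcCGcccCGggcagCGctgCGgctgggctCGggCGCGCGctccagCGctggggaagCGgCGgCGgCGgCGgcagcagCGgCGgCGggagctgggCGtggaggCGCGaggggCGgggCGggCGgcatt
Znrf2: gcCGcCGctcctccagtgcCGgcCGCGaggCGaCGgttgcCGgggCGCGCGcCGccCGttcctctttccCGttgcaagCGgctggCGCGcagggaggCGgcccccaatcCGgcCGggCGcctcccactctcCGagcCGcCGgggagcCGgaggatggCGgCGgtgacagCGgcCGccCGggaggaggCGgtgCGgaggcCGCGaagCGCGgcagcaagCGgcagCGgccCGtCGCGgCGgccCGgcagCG
Gmfg: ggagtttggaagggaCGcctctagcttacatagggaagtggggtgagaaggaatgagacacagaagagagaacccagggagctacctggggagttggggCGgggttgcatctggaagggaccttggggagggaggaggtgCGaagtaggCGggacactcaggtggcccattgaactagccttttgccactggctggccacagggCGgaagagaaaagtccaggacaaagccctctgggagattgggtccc
Hoga1: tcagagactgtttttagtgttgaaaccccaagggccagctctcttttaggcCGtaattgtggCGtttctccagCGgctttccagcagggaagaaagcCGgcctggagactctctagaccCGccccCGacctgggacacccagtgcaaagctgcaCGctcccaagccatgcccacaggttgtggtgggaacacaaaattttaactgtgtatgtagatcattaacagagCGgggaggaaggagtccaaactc
Gstm2: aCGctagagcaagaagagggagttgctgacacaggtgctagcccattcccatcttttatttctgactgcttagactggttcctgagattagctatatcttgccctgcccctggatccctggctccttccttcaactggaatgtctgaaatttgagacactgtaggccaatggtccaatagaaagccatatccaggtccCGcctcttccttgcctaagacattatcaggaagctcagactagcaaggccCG
0610010F05Rik: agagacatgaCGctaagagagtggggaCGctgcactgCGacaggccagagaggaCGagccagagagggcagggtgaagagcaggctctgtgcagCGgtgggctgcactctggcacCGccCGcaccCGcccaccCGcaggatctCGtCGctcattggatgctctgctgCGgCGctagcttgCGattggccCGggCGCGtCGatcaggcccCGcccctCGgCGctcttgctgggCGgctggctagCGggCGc
The 250 bases held 39 CpG at Rap2a and 44 at Znrf2, but 5 at Gmfg. On the early G1 side they held 8 at Hoga1 and 3 at Gstm2, but 24 at 0610010F05Rik.

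The mito lists held 24598 and 30446 peaks and the eG1-1 lists 32101 and 48396. Depth is unknown, since the lists carry no read counts, so where a peak is absent the caller reported none, which sets no limit on openness. Peaks were wider in mitosis, with medians of 456 and 504 bp against 340 and 410 bp in eG1-1. The score in the fifth column is the authors' own value per peak, a whole number of 13 or more with no stated scale, and serves here to order, select and describe the peaks of 1 list. As a guard against list length, calls were repeated on lists trimmed to 20639 peaks by score, as many as the shortest of the 6 has. The score of the weakest peak kept, which was also that of the strongest peak dropped, was 31 and 44 in mito and 38 and 66 in eG1-1. Of 18 embryonic stem cell marker genes, 16 and 14 had a peak within 1 kb of a gene end in the mito lists and 6 and 13 in the eG1-1 lists. Zfp42, which encodes REX1, a marker of naive pluripotency, scored 127 and 149 in mito and 191 and 340 in eG1-1. Pou5f1, which encodes OCT4, scored 48 and 75 in mito and 43 in eG1-1 replicate 2, and had no peak in eG1-1 replicate 1. Of 10 fibroblast markers 1 and 2 were held in mito and 3 and 4 in eG1-1, of 6 trophoblast markers 0 and 2 against 2 and 2, of 6 extraembryonic endoderm markers 0 and 0 against 0 and 1, and of 5 neural markers 2 and 3 against 3 and 3. None of 7 two-cell-like markers had a peak in any list. The part of other cells in the results below was not tested.

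Mitosis and early G1 each had regions of their own, and they lay in different places. As deposited, 1222 of 61151 regions were mito-only (2.00%) and 5205 were eG1-1-only (8.51%), while 13809 were held by all 4 lists. One-sided regions were weaker than shared ones: scores of at least 50 in both lists of the group were found in 20.6% of mito-only and 25.2% of eG1-1-only regions, and in all 4 lists in 54.8% of shared regions. With lists of equal length the order turned: 2340 of 34815 regions were mito-only (6.72%) and 2095 eG1-1-only (6.02%). The regions called both ways numbered 531 on the mito side, 43.5% of the deposited and 22.7% of the equal-length calls, and 1330 on the eG1-1 side, 25.6% and 63.5%. Calls from 3 lists are looser by construction, and without mito replicate 1 or 2, or eG1-1 replicate 1 or 2, there were 5199, 3784, 1780 and 4186 mito-only regions and 6561, 8506, 21152 and 11103 eG1-1-only regions. With 2 lists against 2 no exact permutation test over the lists can give a p below 0.333, and the calls therefore carry no p-value.

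Mito-only regions sat close to transcription starts, eG1-1-only regions far from them. The median distance from a mito-only region to the nearest start in the promoter table was 4423 bp, close to the 4921 bp of regions held by all 4 lists, and that of an eG1-1-only region was 20206.5 bp. Within 1 kb of a start lay 39.3% of mito-only, 8.03% of eG1-1-only and 43.2% of shared regions. Of the eG1-1-only regions 54.8% lay between 10 and 100 kb from a start, against 33.3% of mito-only ones. A protein-coding gene began or ended within 1 kb of 41.6% of mito-only regions (Wilson 95% interval 38.8% to 44.4%) and 8.68% of eG1-1-only regions (7.95% to 9.48%), where the intervals cover counting error only. Comparing 1 list with 1 list inside each sequencing run gave the same order. In the first run 32.9% of the 7455 regions in mito and not in eG1-1 were at a gene end against 10.5% of the 14663 in the reverse case, and in the other run 26.3% of 6146 against 9.94% of 23409. Over whole lists, 36.1% ± 2.92 of mito peaks and 24.7% ± 2.35 of eG1-1 peaks were at a gene end (SD, n = 2 each; difference 11.4 percentage points, two-sided exact permutation p = 0.333).

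**Figure D1:**
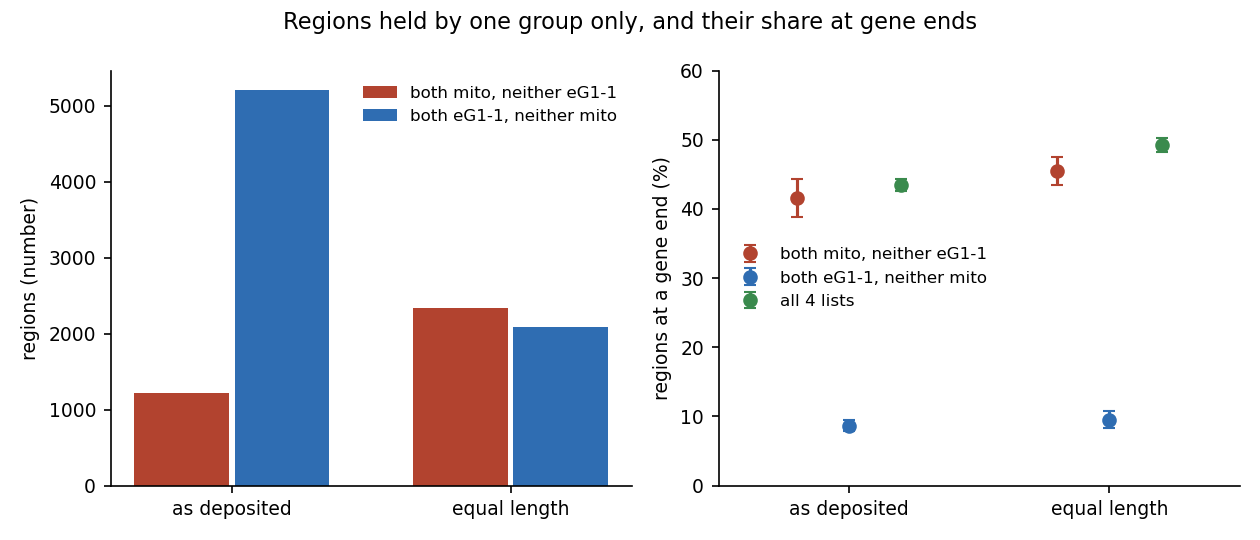
Left, number of regions held by both lists of one group and by neither list of the other, as deposited and with the 20639 strongest peaks of each list. Right, share of these regions and of regions held by all 4 lists that lie within 1 kb of a gene end, in percent, with Wilson 95% intervals. The counts change order with list length (1222 and 5205 against 2340 and 2095), while the eG1-1-only share stays below the others.

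Chromosomes differed in the balance of the kinds of region. As deposited, the number of eG1-1-only regions per mito-only region ranged from 2.94 on chromosome 11 (350 and 119) to 8.79 on chromosome 14 (246 and 28). Chromosome 8 held 428 eG1-1-only and 67 mito-only regions, a ratio of 6.39. All 19 chromosomes had more eG1-1-only than mito-only regions as deposited, but 5 of them at equal length, where the ratio ranged from 0.586 on chromosome 11 to 1.43 on chromosome 8, with 1.35 on chromosome 14.

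Of 20661 protein-coding genes, 421 had a mito-only peak within 1 kb of either end (2.04%) and 339 an eG1-1-only one (1.64%). At equal length the numbers were 1151 (5.57%) and 169 (0.818%), and 241 and 75 genes were called both ways. Where the promoter table gave the strand, the peaks of mito-only genes were at the start alone in 298 of 331 genes (90.0%) and at the far end alone in 21 (6.34%). The peaks of eG1-1-only genes were at the start alone in 200 of 251 genes (79.7%) and at the far end alone in 45 (17.9%). Peaks at the 3′ end of a gene thus made up a larger share of the early G1 side.

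Promoters were then compared directly, using the window from 250 bases before to 50 bases after each annotated start. The 16456 protein-coding genes in the promoter table, which has none on chromosome 18, have 20084 such windows. A promoter was mito-only at 406 genes (2.47%) and eG1-1-only at 204 (1.24%). At equal length the counts were 834 (5.07%) and 144 (0.875%), and 297 and 69 genes were called both ways.

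The 8 strongest promoters called both ways on each side were ranked by the lower of their scores in the group that held them, so their height there is the ground of the choice and no result. The LM lists took no part in the choice. Rap2a, which encodes a small GTPase of the Ras family, scored 285 and 287 in mito, and had peaks in both LM lists (175 and 275). Brpf1, the scaffold of a histone acetyltransferase complex, had mito scores of 260 and 321 and LM scores of 329 and 325. At Fbxo27, an F-box protein gene (204 and 194 in mito), Gmfg, which encodes an actin regulator (185 and 227), and Tnrc6c, a partner of Argonaute in microRNA silencing (261 and 172), LM replicate 1 held a peak (187, 250 and 155) and LM replicate 2 none.
The same held for Ccng2, which encodes the unconventional cyclin G2 (220 and 167 in mito, 248 in LM replicate 1), for the ubiquitin ligase gene Znrf2 (152 and 166, 169) and for the linker histone gene H1f2 (159 and 145, 94). All 8 of these mito-only promoters therefore had a peak in LM replicate 1, and 2 of them in LM replicate 2. Over all mito-only regions at gene ends the shares were 59.3% and 20.3%, so for LM replicate 1 these strongest promoters do not stand for their side.

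On the early G1 side, Lin37, a subunit gene of the MuvB complex of cell cycle regulators, scored 180 and 209 in eG1-1 and 75 and 82 in LM. Hoga1, which encodes a mitochondrial aldolase of hydroxyproline breakdown, scored 160 and 208 in eG1-1 and 77 and 53 in LM. Tigd3, derived from a transposase gene (147 and 138), and Spata4 (122 and 119) had a peak in LM replicate 2 alone (121 and 63). 0610010F05Rik (136 and 143), Stimate, which encodes a membrane protein of the endoplasmic reticulum (124 and 153), and Gm46425 (107 and 185) had one in LM replicate 1 alone (92, 72 and 77). Gstm2, a glutathione transferase gene, scored 128 and 132 in eG1-1 and had no LM peak. Of these 8 promoters, 5 had a peak in LM replicate 1 and 4 in LM replicate 2. Over all eG1-1-only regions at gene ends the shares were 27.9% and 21.9%.

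**Figure D2:**
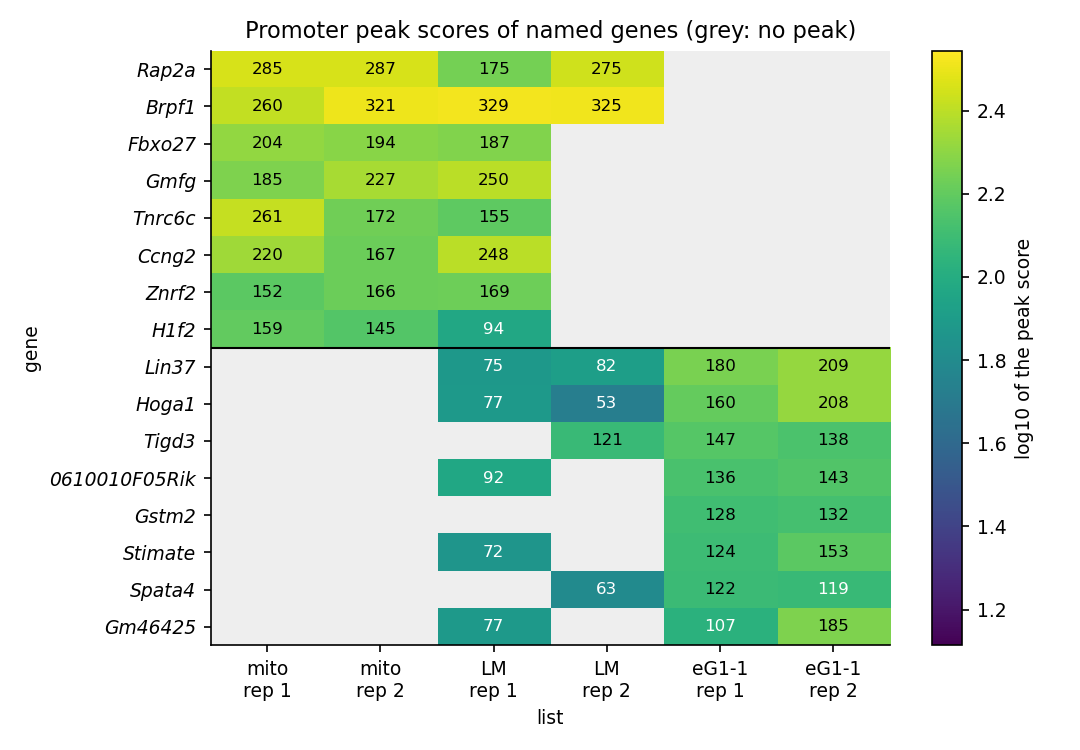
Scores of the promoter peak at 16 genes (vertical) in the 6 lists (horizontal), coloured by log10 of the score and printed in each cell, with grey where no peak was called. Genes above the line were chosen as mito-only and those below it as eG1-1-only, so the empty blocks are fixed by the choice, and the LM columns are not: LM replicate 1 has a peak at all 8 genes above the line, from 94 at H1f2 to 329 at Brpf1. Over all mito-only regions at gene ends, LM replicate 1 has a peak in 59.3%.

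Mito-only promoters were richer in CpG than eG1-1-only promoters. The CpG ratio, the number of CpG observed over the number expected from the C and G content of the 300-base window, had a median of 0.871 over the 506 mito-only windows and 0.489 over the 256 eG1-1-only windows. It was 0.781 over the 5599 windows held by all 4 lists, 0.245 over the 9718 held by none and 0.586 over all windows. Median GC content was 65.3% in mito-only, 55.3% in eG1-1-only and 61.3% in shared windows. Counting a window as CpG-rich at a ratio of at least 0.6 and a GC content of at least 50%, 83.0% of mito-only windows were CpG-rich (Wilson 95% interval 79.5% to 86.0%) against 34.8% of eG1-1-only windows (29.2% to 40.8%). Shared windows stood at 77.5% and all windows at 46.5%. With lists of equal length the shares were 81.9% (79.3% to 84.2%) and 34.7% (28.0% to 42.0%), and within the sequencing runs, 1 list against 1, they were 79.3% and 47.7% in the first and 75.9% and 47.9% in the other. Since mito peaks were wider, every peak was also reduced to its central 300 bp, which gave 81.9% and 47.7%. Within the runs and with reduced peaks, the eG1-1-only share thus lay near the 46.5% of all windows.

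**Figure D3:**
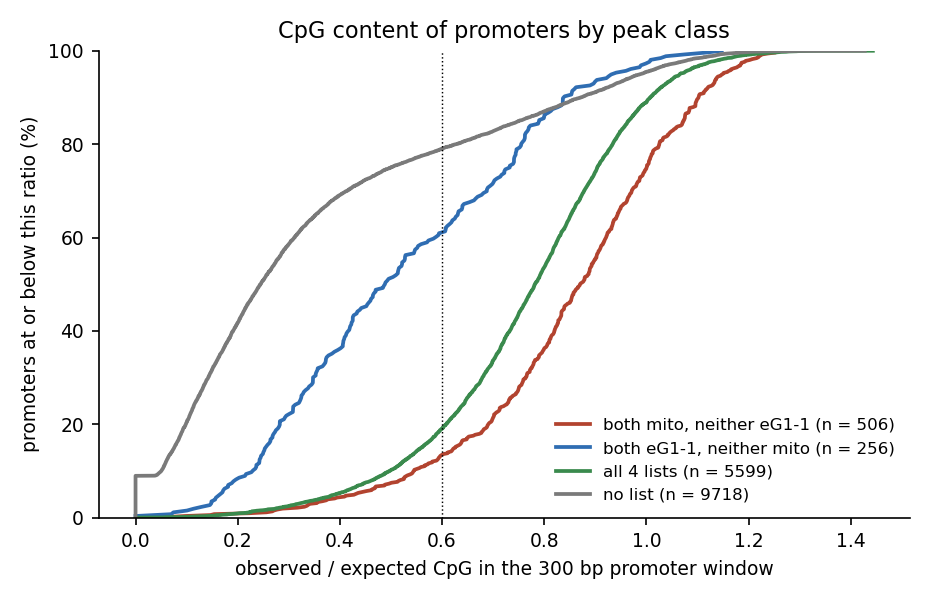
Cumulative share of promoter windows, in percent, at or below each CpG ratio (observed over expected), for windows held by both mito lists alone, both eG1-1 lists alone, all 4 lists or no list, with the CpG-rich limit of 0.6 dotted. The eG1-1-only curve (median 0.489) lies between the windows without a peak (0.245) and those held by all lists (0.781), and the mito-only curve has the highest median (0.871).

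The named promoters mostly followed this division. Rap2a, Tnrc6c, Znrf2 and H1f2 had CpG ratios of 1.08, 1.08, 1.104 and 1.00 over the 300-base window, and Brpf1 and Ccng2 0.877 and 0.730. Fbxo27 (0.452) and Gmfg (0.223) were CpG-poor although mito-only. On the other side Gstm2 (0.161), Gm46425 (0.283), Hoga1 (0.407), Spata4 (0.466) and Lin37 (0.571) were under 0.6. Stimate (0.707), Tigd3 (0.733) and 0610010F05Rik (0.853) were over it.

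The same contrast was looked for list by list, without the mito-only and eG1-1-only calls. Of all CpG-rich windows, 67.9% and 68.8% had a peak in the mito lists, 55.3% and 65.0% in the eG1-1 lists. Of the other windows it was 16.6% and 20.2% in mito and 17.0% and 23.2% in eG1-1. At equal length, CpG-rich windows stood at 65.1% and 62.8% in mito and 48.6% and 49.5% in eG1-1, a difference of 14.9 percentage points (63.9% ± 1.63 against 49.1% ± 0.697, SD, n = 2 each, two-sided exact permutation p = 0.333, the smallest possible). The difference was 16.5 points within the first run and 13.2 within the other. As deposited it was 12.6 and 3.73 points, so in the other run it was small before trimming. The other windows, at 16.2% ± 1.26 and 15.3% ± 1.32, overlapped between the groups (exact permutation p = 0.667). LM replicate 1, with 65.9% of CpG-rich windows at equal length, lay beside the mito lists, and LM replicate 2, with 48.4%, beside the eG1-1 lists. Among shared promoters the score ranked CpG-rich above other windows with a probability of 0.607 and 0.572 in mito and 0.505 and 0.491 in eG1-1.

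**Figure D4:**
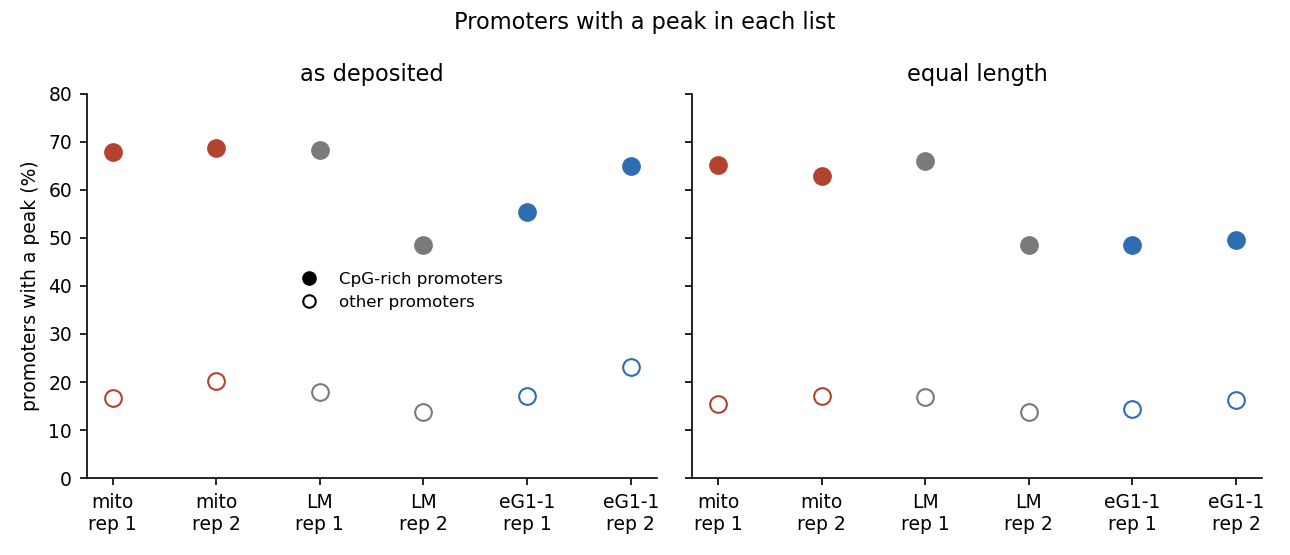
Share of promoter windows with a peak, in percent, in each of the 6 lists, as deposited (left) and with 20639 peaks per list (right), for CpG-rich windows (filled) and all other windows (open). At equal length the mito lists (65.1% and 62.8%) and LM replicate 1 (65.9%) hold more CpG-rich windows than the eG1-1 lists (48.6% and 49.5%) and LM replicate 2 (48.4%), while the open points lie between 13.9% and 17.1%.

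Short sequence motifs, searched on both strands, differed in share between the classes of promoter. CCAAT, the core of the site of the trimeric factor NF-Y, was in 25.5% of mito-only, 40.6% of eG1-1-only and 50.3% of shared windows, and in 38.1% of all windows. Within CpG-rich windows alone CCAAT was in 23.3% of 420 mito-only, 29.2% of 89 eG1-1-only and 49.5% of 4342 shared windows, and in 19.1% of the 1902 with no peak. At equal length 27.5% of mito-only, 45.7% of eG1-1-only and 53.6% of shared windows held it. AANATGGC, a form of the YY1 site, was in 11.3% of mito-only, 1.95% of eG1-1-only and 9.73% of shared windows (6.36% of all), and within CpG-rich windows in 12.1%, 4.49% and 10.2%. CCGGAAG, an ETS site, stood at 22.1%, 12.1% and 22.4% (11.9% of all), but within CpG-rich windows at 22.9%, 22.5% and 24.4%. GGGCGG, the GC box bound by SP and KLF factors, which contains a CpG, stood at 65.6%, 51.2% and 70.7% (47.0% of all). Within CpG-rich windows the order of the GC box turned, with 71.2% of mito-only, 79.8% of eG1-1-only and 76.7% of shared windows. TATAAA was in 7.91%, 8.20% and 4.93% (12.7% of all) and the TEAD motif CATTCCA in 1.19%, 5.86% and 2.75% (3.84% of all), and within CpG-rich windows the latter was in 1.19%, 2.25% and 2.37%. The E2F motif TTTCCCGC was in 19 mito-only windows (3.75%) and 2 eG1-1-only windows (0.781%), where 1.41% of all windows held it, and within CpG-rich windows in 4.29% and 0%. A match describes the letters and says nothing of binding.

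Late-mitosis lists, which did not enter the choice of regions, held the mito-only and eG1-1-only regions unequally in 1 replicate and about equally in the other. LM replicate 1 had a peak in 46.9% of mito-only regions (Wilson 95% interval 44.1% to 49.7%) and 17.0% of eG1-1-only regions (16.0% to 18.01%). LM replicate 2 had one in 19.2% (17.1% to 21.5%) and 20.4% (19.3% to 21.5%). At gene ends the mito-only shares were 59.3% and 20.3%, and the eG1-1-only shares 27.9% and 21.9%. Neither LM list had a peak in 44.8% of mito-only and 68.5% of eG1-1-only regions, against 6.04% of regions held by all 4 lists. The mean over both LM lists was 14.4 percentage points higher for mito-only regions (SD 22.0, n = 2), less than the spread between the LM lists. Without mito replicate 1 or 2 that difference was −6.85 or −9.44 points, and without eG1-1 replicate 1 or 2 it was 27.9 or 34.9.

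**Figure D5:**
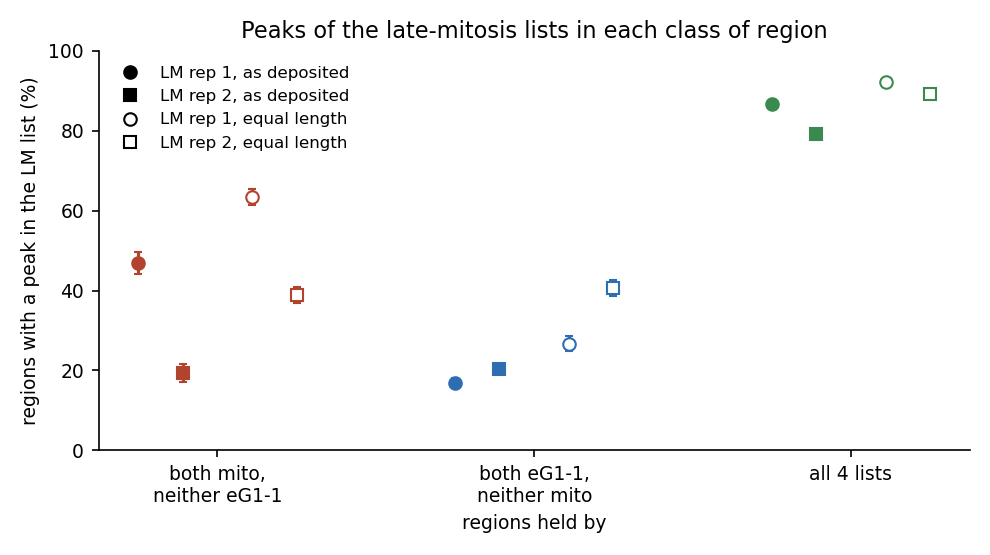
Share of mito-only, eG1-1-only and shared regions with a peak in each late-mitosis list, in percent, with Wilson 95% intervals. Circles are LM replicate 1 and squares LM replicate 2, filled for lists as deposited and open for lists of equal length. LM replicate 1 has 46.9% of mito-only and 17.0% of eG1-1-only regions, LM replicate 2 19.2% and 20.4%.

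Gene groups were read against the background of 2.47% mito-only and 1.24% eG1-1-only promoters. The lists were chosen with results of these data known, so their counts describe them. Chromatin regulators and architecture genes had 7 mito-only promoters of 35 and no eG1-1-only one. They were the BET bromodomain genes Brd3 (83 and 110 in mito) and Brd2 (49 and 71), whose proteins bind acetylated histones, the acetyltransferase gene Ep300 (87 and 60), the demethylase gene Kdm1a (69 and 75), the Polycomb gene Eed (60 and 32) and the cohesin genes Stag1 (147 and 29) and Pds5b (67 and 39). At equal length Brd3, Brd2, Ep300 and Kdm1a kept the call. Brd3 and Kdm1a had no LM peak, and the others had one in LM replicate 1 alone, from 33 at Ep300 to 84 at Eed.

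Replication-dependent histone genes, whose products package newly made DNA, had 10 mito-only promoters of 58 and 0 on the early G1 side, while 16 were held by all 4 lists. Linker histone genes made up 4 of them, H1f2, H1f4 (62 and 107 in mito), H1f1 (68 and 52) and H1f5 (41 and 90). H4c8 (50 and 70) and H4c1 (44 and 19) encode H4, and H4c1 lost the call at equal length. H2ac7 and H2bc7, which lie side by side, share 1 peak (64 and 76). All 10 lie in the histone gene clusters of chromosome 13, so neighbouring members are not independent. Core histone genes of the same family can be near-identical in their coding sequence. How reads that fit several copies were placed is not given in the sources used here.

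Ribosomal protein genes, which need high and steady transcription, had 7 mito-only promoters of 61 and 1 eG1-1-only. Rps26 scored 86 and 124 in mito, Rpl26 69 and 59, Rpl35 44 and 59, Rpl35a 33 and 41 and Rpl31 52 and 22. Translation initiation factor genes had 4 of 41 and 0, namely Eif2s2 (117 and 98), Eif1ad (60 and 82), Eif3g (82 and 50) and Eif4h (37 and 70). Of the splicing factor genes of the SR and hnRNP families 2 of 37 were mito-only, Srsf6 (78 and 116) and Srsf3 (48 and 106), and 0 eG1-1-only. Nuclear pore and lamina genes had 2 of 29, Nup210 (92 and 97) and Nup153 (44 and 39), and 0. Genes of the respiratory chain had 2 of 82, Ndufb1 (86 and 61) and Ndufa13 (66 and 43), and 1 eG1-1-only, the cytochrome c oxidase gene Cox7a1 (48 and 104). Both counts are close to the background of 2.47% and 1.24% of all promoters. At equal length Rpl35a, Rpl31, Nup153 and Ndufa13 lost the mito-only call, and the other genes named in this paragraph kept theirs.

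The share of a group's genes with a peak at either end shows how much rests on single lists. Over all protein-coding genes it was 48.1% and 52.0% in mito and 43.4% and 54.3% in eG1-1. For chromatin genes it was 75.6% and 82.9% in mito against 46.3% and 78.0% in eG1-1, for ribosomal protein genes 79.0% and 88.9% against 59.3% and 74.1%, and for histone genes 79.4% and 76.2% against 57.1% and 68.3%. In each of these groups both mito lists lay above both eG1-1 lists, except that eG1-1 replicate 2 (78.0%) lay above mito replicate 1 (75.6%) for chromatin genes. The G2 and M phase list, 34 regulators and machines of mitosis, had no gene-end call in either direction, and 30 of its genes were held by all 4 lists. Over all protein-coding genes 2.04% and 1.64% were called, so 0 among 34 is near the background. Of all 32 gene lists, 19 had more mito-only than eG1-1-only genes at gene ends.

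Zinc finger genes of the Zfp series were called in both directions, with 8 eG1-1-only and 7 mito-only promoters of 325. Over all promoters the shares were 1.24% and 2.47%, so the mito-only count is near the background. Many of these genes belong to the KRAB family, which silences transposons and lies in clusters of similar copies. Zfp534 scored 107 and 231 in eG1-1 with no LM peak, Zfp456 86 and 152, Zfp93 62 and 184 and Zfp459 42 and 69, all 4 also called at equal length. Zfp456 and Zfp459 lie near each other on chromosome 13. On the mito side Zfp282 scored 127 and 128, Zfp335 86 and 87, Zfp770 82 and 103 and Zfp334 76 and 111. Foxr1, a forkhead gene (56 and 86), and the olfactory receptor gene Olfr373 (50 and 92) were further eG1-1-only promoters called both ways.

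Other list members were called at gene ends. On the mito side these included the bile acid carrier family member Slc10a7 (104 and 123), the monocarboxylate transporter gene Slc16a6 (66 and 73), Slc44a5 (54 and 80) and Slc15a4 (52 and 47) among solute carriers, against Slc45a2 (86 and 57 in eG1-1) and the iron exporter gene Slc40a1 (59 and 48) on the other. The potassium channel genes Kcnj12 (62 and 50) and Kcnc2 (50 and 49) were mito-only. Kif16b, a kinesin gene (97 and 63), Foxn2 (61 and 87), the mitochondrial ribosomal gene Mrps31 (75 and 74), Zfp771 (55 and 116) and the methylcytosine oxidase gene Tet3 (58 and 54) were mito-only as well. These calls concern gene ends, and the promoter of Zfp771 had a peak in all 4 lists. Promoters of Slc15a4, Kcnc2 and Tet3 were neither mito-only nor eG1-1-only, and those of Slc44a5 and Kcnj12 had no peak in the 4 lists.
Ranbp1, a cofactor of the GTPase Ran (47 and 49), and the replication helicase gene Mcm2 (78 and 96) were mito-only with peaks in both LM lists. The promoter of Mcm2 was mito-only too, while that of Ranbp1 was not. Smad5, which carries BMP signals (83 and 54 in eG1-1), Zfp974 (77 and 57) and Zfp990 (61 and 48) were eG1-1-only as deposited and lost the call at equal length, as did Slc45a2 and Slc40a1.

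At pluripotency genes the calls lay partly at promoters and mostly around them. L1td1, an RNA-binding protein gene of the pluripotent state, had a mito-only promoter (36 and 61), as did Tcl1, a cofactor of AKT (33 and 68), and none of 26 pluripotency promoters was eG1-1-only. At gene ends 5 of 42 members were mito-only (11.9%) and 0 eG1-1-only, against 2.04% and 1.64% of all protein-coding genes. Among 42 genes, 0 eG1-1-only calls is near that background, as is 0 among 26 promoters beside 1.24% of all promoters. Of the 42 members, 76.2% and 71.4% were held in mito against 33.3% and 66.7% in eG1-1. Away from gene ends, but within 50 kb of a member, 13 regions were mito-only and 30 eG1-1-only, so that 69.8% of these were on the early G1 side. Around all protein-coding genes the numbers were 625 and 4002, or 86.5%. For genes of stem cell signalling pathways they were 13 and 27, or 67.5%. These distal counts are for lists as deposited, and over all regions the balance turned at equal length.

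Several of these loci held regions of both kinds, which were picked out from the list after their values were seen. Esrrb encodes an orphan nuclear receptor that binds mitotic chromosomes. Inside the gene, on chromosome 12 from 86501704 to 86502312 and from 86504088 to 86504629, the mito lists scored 61 and 100, and 66 and 114, with peaks in LM replicate 1 (83 and 35) and none in eG1-1. Also inside the gene, from 86508458 to 86508817, a region was eG1-1-only (36 and 21). Downstream, from 86556751 to 86557332 and 35.4 kb from the gene, the eG1-1 lists scored 85 and 109, with a peak in LM replicate 1 (74) and none in mito. At Lif, the gene of the cytokine that holds these cells naive, the mito-only region on chromosome 11 from 4267051 to 4267631 (27 and 55) and the eG1-1-only region from 4270908 to 4271487 (52 and 66) lay within the same gene.
Zfp42 had an eG1-1-only region inside the gene (34 and 41) and a mito-only one 4.21 kb outside it (58 and 44). Around Id3, a target of BMP signalling, 3 regions were mito-only, with scores from 27 to 71, and none eG1-1-only. Inside Gsk3b, which encodes the kinase that CHIR99021 inhibits, 4 regions were eG1-1-only, with scores from 20 to 71, and none mito-only. Near Dppa3, which protects DNA methylation in the early embryo, 2 regions were eG1-1-only (50 and 63, and 54 and 59) and 1, which also lies near Nanog, was mito-only (34 and 45).

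The strongest distal regions, ranked by the lower score of the group that held them, gave further single sites. On chromosome 3 from 96340817 to 96341320, 47099 bp from Fcgr1, both mito lists had a peak (274 and 107), and so did both LM lists (170 and 77). A region inside Septin9 (chromosome 11, 117358167 to 117358749) scored 131 and 106 in mito and 62 in LM replicate 1. On the early G1 side a region inside Stox2 (chromosome 8, 47334171 to 47334626) had peaks in both eG1-1 lists (249 and 256) and both LM lists (64 and 81). One inside Dlat (chromosome 9, 50646729 to 50647162), an enzyme gene of the pyruvate dehydrogenase complex, scored 241 and 257, and one inside Gfod1 (chromosome 13, 43261206 to 43261798) 240 and 288, each with a peak in LM replicate 2 alone (90 and 86).

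Some genes gathered several regions of 1 kind in the gene body and 50 kb either side. Ppp2r5a, a regulatory subunit gene of the phosphatase PP2A, had 6 mito-only and 0 eG1-1-only regions, and its neighbour Pacc1, whose surroundings overlap, 5 and 0. Atp9a had 4 and 1, and the neighbours Foxj1 and Rnf157 4 and 0 each. Tenm3, a teneurin gene with a body of 1297 kb, had 9 eG1-1-only and 0 mito-only regions, Rapgef2 7 and 1, Apbb2 and Lpp 6 and 0 each, and Camk1d and Glo1 6 and 1 each. Long genes have more room for such regions, and apart from Glo1, with a body of 19.8 kb, the early G1 genes were 224 kb or longer.

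Regions open in both stages differed in rank. Over the 13809 regions held by all 4 lists, each region was given its percentile by score within each list, and the rank correlation between lists was 0.683 for the mito pair, 0.712 for the eG1-1 pair and 0.515 to 0.575 across the groups. Both mito percentiles lay at least 25 points above both eG1-1 percentiles in 645 regions (4.67%), and the reverse held in 683 (4.95%). Gene ends held 59.2% of the former (Wilson 95% interval 55.4% to 63.0%) and 23.4% of the latter (20.4% to 26.7%), against 43.4% of all shared regions. At Mat2a, which makes S-adenosylmethionine, the mito percentiles were 82.8 and 76.6 and those of eG1-1 8.76 and 7.24. At the RNA helicase gene Ddx18 they were 81.5 and 93.4 against 2.92 and 14.8, and at Ppp2r1b, a scaffold subunit gene of PP2A, 80.9 and 82.7 against 13.4 and 6.81. In the other direction, a region 11.2 kb from Mmaa stood at 0.0398 and 6.32 in mito and 93.5 and 87.3 in eG1-1. A region inside Lhx2, a developmental transcription factor gene, stood at 9.08 and 8.77 against 82.1 and 80.7, and one inside Glo1, which clears methylglyoxal, at 17.7 and 23.4 against 92.7 and 91.4.

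The balance of calls at non-coding genes depended on list length. Of 12408 lncRNA genes, 96 had a mito-only (0.774%) and 237 an eG1-1-only (1.91%) peak at an end as deposited, but 270 (2.18%) and 106 (0.854%) at equal length. Of 1136 miRNA genes 10 and 21 were called as deposited and 16 and 6 at equal length, and pseudogenes gave 14 and 78 of 8884, then 24 and 20. The 391 tRNA genes, many of which are near-identical copies, gave 9 and 2 (2.30% and 0.512%), then 17 and 1. Of 1286 snoRNA genes 5 and 4 were called (0.389% and 0.311%), nearly equal counts, then 8 and 4. Among protein-coding genes the shares were 2.04% and 1.64%, then 5.57% and 0.818%. Of 931 snRNA genes 0 and 8 were called, then 3 and 2. The eG1-1-only region of the lncRNA gene LOC115488162 is the one inside Gfod1. Named lncRNA genes were ranked by the lower score of a called region that overlaps the gene, whereas the counts above concern gene ends. The regions of LOC115488162 and of Gm46040 (142 and 226 in eG1-1, no LM peak) lie inside the gene, more than 1 kb from either end. The mito-only region of Gm35235 (98 and 125), which had peaks in both LM lists (52 and 59), overlaps an end of that gene. It also lies at the end of a protein-coding gene, so it cannot be assigned to the lncRNA gene alone. Among small RNA genes, picked after their values were seen, Mir142 lies in a mito-only region (70 and 42), Mir326 at the edge of an eG1-1-only region (47 and 54) and Mir1955 inside one (56 and 50), none of which is at the end of a protein-coding gene.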

How the data were processed

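The deposited lists hold chromosome, start, end, name and a score for each peak, and the score is the authors' own value, whose scale, like the threshold of the caller and any shift of read ends for the Tn5 offset, is not given in the sources used here. Per the submitters' processing notes, the tools were MACS2 2.2.4, STAR 2.7.0e, SAMtools 1.10, deepTools 3.5.1, bedtools and Picard, in roles not stated, with mm10 (GRCm38). Per the peak names in the deposited lists, peaks were called per sample. The titles and the protocol differ on the number of cells per sample.

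Overlaps of 1 bp or more, gene ends (1 kb either side of both ends of 20661 protein-coding genes, RefSeq GRCm38.p6) and promoter windows were computed with Python 3.11.15, pandas 2.3.3, numpy 2.4.6 and scipy 1.17.1, and the code was tested on simulated lists. The members, the 32 gene lists, the 19 motifs and the comparisons were chosen with earlier results of these data known. Named items were the 8 promoters, 6 distal regions, 6 neighbourhoods, 6 rank shifts and 4 non-coding genes ranked highest per side, and up to 40 list members called at gene ends; list members called at promoters, loci with both kinds of region and small RNA genes were named after their values were seen. Replicate numbers go with the codes in the peak names, read as sequencing runs, so they pair the lists. Over the regions, deviations of same-numbered mito and eG1-1 lists correlated at 0.0292. Alternatives were equal list lengths, a score of at least 50, other overlaps and windows, and leaving out each list. The central 300 bp of each peak and 1 promoter per gene were added after seeing the data. Chromosomes X and Y were left out by the rule that chose the lists. Some items that the naming rule selects are not reported here.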

Additional observations from a re-analysis of the deposited data

How the results depend on the processing

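With 20639 peaks per list, mito-only counts became 2340 regions, 1151 genes and 834 promoters, eG1-1-only counts 2095 regions and 169 genes, and the mito-only share at gene ends 45.5%. With 24598 peaks, the shortest of the 4 lists, they were 2593, 1070 and 778, and 2389, 154 and, for promoters, 135. At a score of at least 50 there were 2794 eG1-1-only regions, the gene-end shares were 52.3% for mito-only and 10.5% for eG1-1-only regions, and 360 and 373 shared regions ranked higher in mito and in eG1-1. A 500 bp window gave gene-end shares of 29.9% and 5.92%, a 2 kb window 49.5% and 13.01%. With peaks reduced to their central 300 bp, 47.7% of eG1-1-only and 81.9% of mito-only promoters were CpG-rich, so the direction held while the gap narrowed. The eG1-1-only share was then near the 46.5% of all promoter windows.

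Leaving out 1 list at a time gave 1780 to 5199 mito-only and 6561 to 21152 eG1-1-only regions, 636 to 1687 and 527 to 1142 genes, and 600 to 1289 and 335 to 658 promoters. Gene-end shares ran from 26.6% to 41.5% and from 8.35% to 12.04%, CpG-rich shares of promoters from 74.8% to 82.3% and from 37.1% to 49.7%, rank shifts from 1458 to 1620 and from 1433 to 1683, and gene lists with more mito-only genes from 16 to 29, the latter without eG1-1 replicate 2. The late-mitosis difference ran from −9.44 to 34.9 points and turned without either mito list; the cause was not tested. Of the 40 named gene-end calls, 5 were lost at equal length, 9 at a score of at least 50, 12 with a 2 kb window and 10 with a 500 bp window. These 40 were chosen for their high scores, which favours keeping them when lists are cut by score. Over all protein-coding genes, 241 of 421 mito-only and 75 of 339 eG1-1-only calls were kept at equal length.

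With the replicate number as a block, the gene-end difference stayed at 11.4 points with an exact permutation p of 0.5, the smallest that pairing by run allows. No other result was fitted with the block, since the calls come from no test. Depth is unknown, so an absent peak sets no upper limit on accessibility.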
